A study of Gallus gallus with 32 samples.

Results

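The liver transcriptome of broilers fed the control diet was described from 8 RNA sequencing libraries of Arbor Acres birds, a commercial line of meat chicken. The libraries were those whose labels give the control diet with 0 g/kg of added arginine, and they were 8 of the 32 liver libraries of the series. The labels give no age, sex or rearing detail for these birds, and nothing in them says that the 8 libraries came from separate animals, so the spread between libraries may be partly technical. The question was which transcripts make up this liver, which of them differ between libraries on one diet, and which genes of the urea cycle and of mammalian liver are near 0. The other 24 libraries, on diets with added arginine, were not compared.

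The liver makes most proteins of blood plasma, packs fat into lipoproteins, stores and releases glucose, and breaks down amino acids. In chickens it is also the main site of fatty acid synthesis, and nitrogen leaves the body mostly as uric acid, which is built through purine synthesis and made by xanthine dehydrogenase. Mammals instead detoxify ammonia in the liver through the urea cycle.

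Values are TPM, in which the reads of a gene are divided by its transcript length and scaled to a fixed total per library. A share of TPM is therefore a share of transcript number and not of RNA mass, and sequencing depth is unknown because only TPM were used. The table lists 25619 genes. Mean TPM reached 1 in 11259 of them, 10 in 4964, 100 in 884 and 1000 in 136. At the other end, 6029 genes were listed at 0 in all 8 libraries. A single library held 10722 to 11335 genes at 1 TPM or more.

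The 4 marker genes taken for this liver were abundant in every library. They were chosen with earlier results of these data known, so their abundance is no independent check of the tissue label. ALB, albumin, the main plasma protein, stood at 88690 ± 24850 TPM (SD, n = 8), from 50284 in replicate 7 to 118995 in replicate 4. APOA1, the main protein of high-density lipoprotein, stood at 15420 ± 3917 TPM, from 10346 in replicate 3 to 21168 in replicate 7. LBFABP, the liver basic fatty acid binding protein, stood at 9893 ± 2668 TPM, from 5264 in replicate 1 to 13571 in replicate 3. AvBD9, an avian beta-defensin, stood at 9613 ± 4332 TPM, from 2612 in replicate 5 to 17123 in replicate 3. Together the 4 took 9.07 to 15.4% of the TPM of a library, least in replicate 7 and most in replicate 4. Their ranks do not follow one another: replicate 7 was lowest for ALB and highest for APOA1.

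Most markers of tissue next to the liver were near 0. Of 12 matched skeletal muscle genes, the actin gene ACTA1 alone reached a mean of 1 TPM, at 1.31. Of 12 matched pancreatic acinar genes, AMY1A, an amylase, stood at 72.4 ± 21.7 TPM, and the other 11 were below 1 TPM, with 7 listed at 0 in all libraries.

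Several libraries stood apart. The median Pearson correlation of a library with the other 7, over log2(TPM + 1), was 0.858 for replicate 7, 0.879 for replicate 3 and 0.9 for replicate 1, and 0.918 to 0.929 for the remaining 5. Replicate 7 was the library farthest from the median for 30.9% of the 4964 genes whose mean reached 10 TPM, replicate 3 for 27.1% and replicate 1 for 17.2%. HINTW, a gene of the W chromosome that only female chickens carry, was at 28.67 TPM in replicate 1 and 26.09 TPM in replicate 8, and was listed at 0 in the other 6. Several W-linked genes reached a mean of 10 TPM only through replicates 1 and 8, so no count of variable W-linked genes is given. LOC121108826, for example, was at 49.7 and 35.93 TPM there and at 0 in the other 6. ATP5F1AW, the W-linked copy of an ATP synthase subunit, was at 352.38 and 276.84 TPM in replicates 1 and 8 and at 1 to 30.71 TPM in the others. NEDD4L, also W-linked, did not follow this split, at 90.25 TPM in replicate 1, 48.05 in replicate 4 and 30.93 in replicate 8. MBD2, which the reference table also places on W, was at 44.62 to 75.89 TPM in all 8. Counts of variable genes that change most without replicate 7 or 3 are given with and without that library.

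A small number of genes took much of the transcript pool. The 10 most abundant genes held 30.1 ± 1.96% of a library's TPM, from 26.89 to 32.14%. A share of 0.5 of the summed mean TPM lay in 47 genes, and 33 to 65 genes held that share in single libraries. Ranked by the mean over libraries, the top 25 genes held 41.5% and the top 100 held 59.55% of the TPM.

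**Figure D1:**
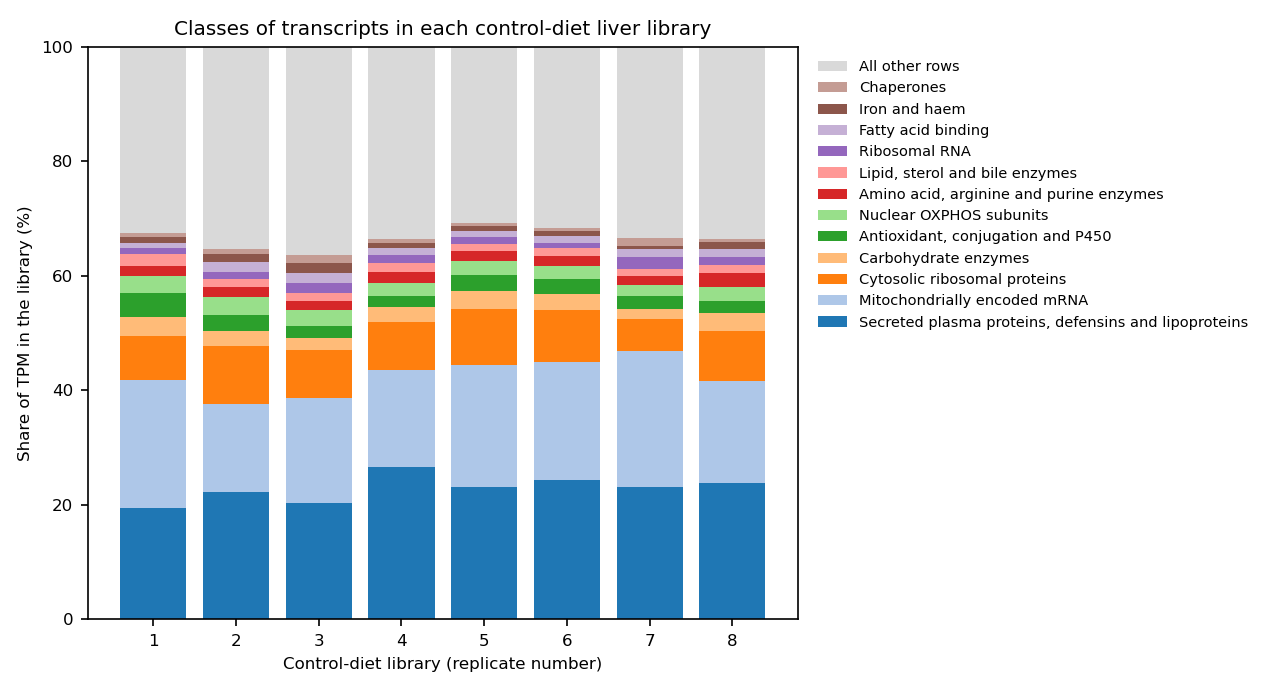
Stacked bars give the percent of TPM in each of the 8 control-diet libraries (horizontal axis, replicate number) that belongs to each class of transcript, each gene being counted once. Secreted proteins, mitochondrially encoded mRNA and ribosomal protein mRNA are the 3 named classes with the most TPM in every library.

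Grouped by function with each gene counted once, secreted plasma proteins, defensins and lipoprotein genes (110 genes) held 22.9 ± 2.26% of the TPM (n = 8). The 13 mitochondrially encoded mRNAs held 19.6 ± 2.88%, from 15.4% in replicate 2 to 23.7% in replicate 7. The 66 cytosolic ribosomal protein genes held 8.44 ± 1.35%, from 5.66% in replicate 7 to 10.0% in replicate 2. The library lowest for the mitochondrial class was thus the highest for ribosomal proteins, and the reverse. This did not hold throughout: replicate 5 was above the mean of both classes (21.4 and 9.67%) and replicate 4 below both (16.98 and 8.35%).

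Smaller classes followed. Carbohydrate enzymes held 2.75 ± 0.566%, antioxidant, conjugation and cytochrome P450 genes 2.56 ± 0.674%, and nuclear subunits of the respiratory chain and ATP synthase 2.55 ± 0.43%. Enzymes of amino acid catabolism and of arginine and purine metabolism held 1.78 ± 0.3%, and enzymes of lipid, sterol and bile metabolism 1.49 ± 0.313%. PSPH, an enzyme of serine synthesis with a mean of 5794 TPM, was not in the first of these classes. Fatty acid binding genes held 1.32 ± 0.338% and ribosomal RNA 1.39 ± 0.396%. The 24943 genes outside all classes held 33.4 ± 1.86%.

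**Figure D2:**
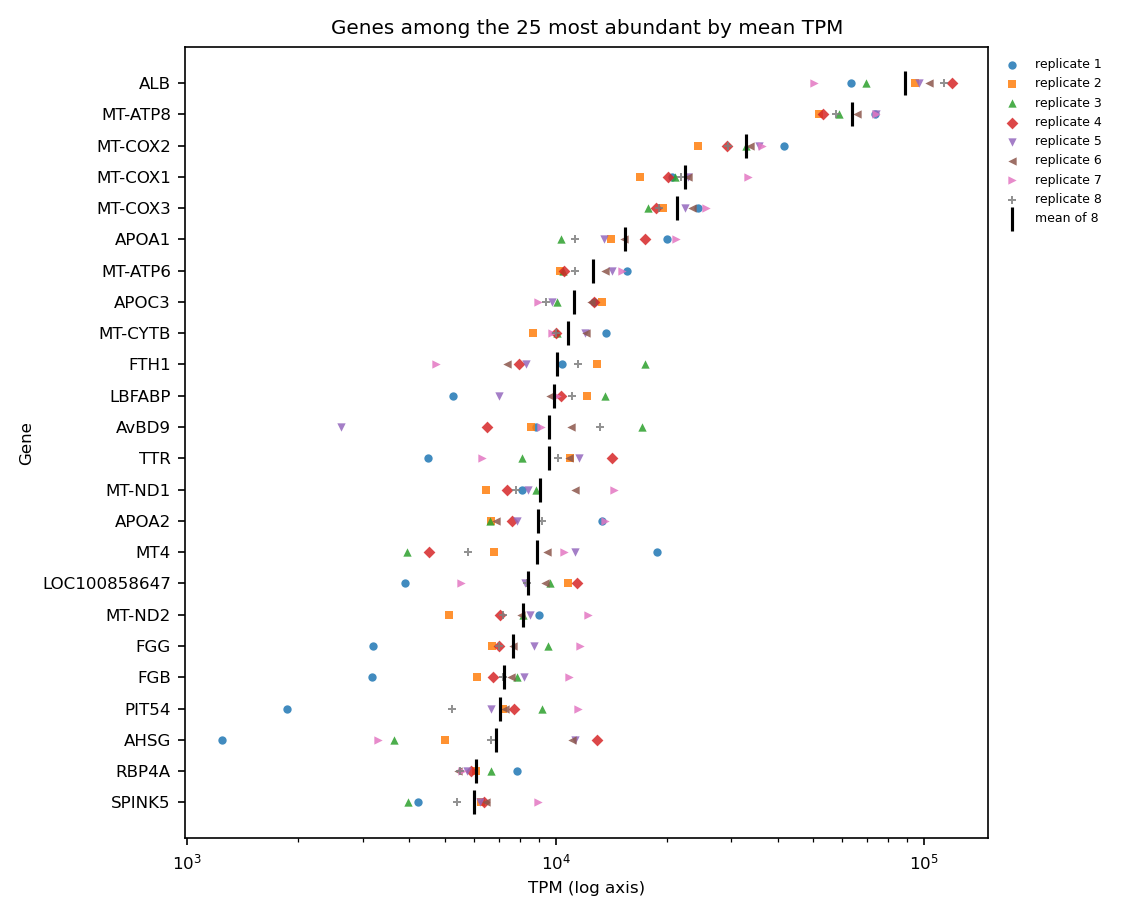
Each row is 1 of 24 genes among the 25 most abundant, ordered by mean TPM; symbols give the 8 libraries, the black bar the mean, and the horizontal axis is logarithmic. ALB leads, 8 of the genes are mitochondrially encoded, and AHSG and AvBD9 spread most widely among them.

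Of the 25 most abundant genes, 8 were encoded in the mitochondrial genome. MT-ATP8 stood at 63590 ± 9528 TPM, MT-COX2 at 32860 ± 5293, MT-COX1 at 22450 ± 4742 and MT-COX3 at 21370 ± 2918. These encode an ATP synthase subunit and the 3 core subunits of cytochrome c oxidase. The genes MT-ATP8 and MT-ATP6 overlap in the mitochondrial genome and MT-ATP8 is short, so its per-length value is uncertain. MT-ATP6 was at 12640 TPM, and MT-CYTB, MT-ND1 and MT-ND2 at 10800, 9084 and 8163 TPM.

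Transport proteins and lipoproteins made up the next block. APOC3 and APOA2, apolipoproteins of triglyceride-rich and high-density particles, stood at 11180 ± 1790 and 8965 ± 2896 TPM. TTR, which carries thyroid hormone, stood at 9571 ± 3108 TPM, and RBP4A, a plasma retinol carrier, at 6095 ± 814.1 TPM. RBP4A varied little for so abundant a transcript (SD of log2(TPM + 1) of 0.179), from 5430 to 7848 TPM. AHSG, fetuin-A, a plasma inhibitor of calcification, ran from 1242 TPM in replicate 1 through a median of 5825 to 12936 TPM in replicate 4.

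The fibrinogen chains, which polymerise in a clot, were close in level. FGG stood at 7678 ± 2444 TPM, FGB at 7219 ± 2166 and FGA at 5553 ± 1477. In all 3, replicate 1 was lowest (3184, 3164 and 3040 TPM) and replicate 7 highest (11605, 10884 and 7848 TPM). PIT54, the haemoglobin-binding plasma protein of birds, stood at 7078 ± 2800 TPM, with the same lowest and highest libraries, at 1866 and 11466 TPM.

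Other genes of the top 25 work inside the cell or in defence. FTH1, ferritin heavy chain, which stores iron, stood at 10080 ± 3926 TPM, from 4726 in replicate 7 to 17448 in replicate 3. MT4, a metallothionein that binds zinc and copper, stood at 8894 ± 4864 TPM and was highest in replicate 1, at 18850. SPINK5, a serine protease inhibitor, stood at 5992 ± 1560 TPM. LOC100858647, which the reference table does not name further, stood at 8408 ± 2551 TPM.

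Amino acid metabolism was led by serine and purine enzymes. PSPH, the last enzyme of serine synthesis, ran from 1945 TPM in replicate 3 through a median of 4852 to 12257 TPM in replicate 8. ATIC, which makes the last 2 steps of inosine monophosphate synthesis, stood at 3559 ± 1824 TPM. PRPS2, ADSL and PAICS, earlier enzymes of that route, stood at 852.1, 710.6 and 608.8 TPM. XDH, xanthine dehydrogenase, which forms uric acid, ranged from 39.76 TPM in replicate 3 to 504.3 TPM in replicate 4. All but 1 of 21 matched purine and uric acid genes reached a mean of 1 TPM. The exception, PNP, a purine phosphorylase, was listed at 0 in every library, and an exact 0 in such a table can be a failed estimate.

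Amino acid catabolism genes followed. HPD, of tyrosine breakdown, stood at 2053 ± 567.5 TPM, MAT1A and AHCY, of the methionine cycle, at 952.9 ± 230.5 and 690.6 ± 221.2, and TAT, tyrosine aminotransferase, at 843.6 ± 382.1 TPM. Creatine synthesis had GAMT at 385.2 ± 82.3 TPM and GATM, the arginine:glycine amidinotransferase that starts it, at 220.1 ± 163.5 TPM. GATM ranged from 18.62 TPM in replicate 1 to 418.2 TPM in replicate 8. OAZ1, an inhibitor of polyamine synthesis, stood at 1180 ± 131.3 TPM.

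Genes of glucose and fat metabolism were next. GAPDH, LDHB and ENO1 of glycolysis stood at 3235, 3094 and 2708 TPM, and FBP1, PCK2 and G6PC of gluconeogenesis at 2022, 642.8 and 709.7 TPM. In fatty acid synthesis SLC25A1, the mitochondrial citrate carrier, stood at 554.2 ± 38.6 TPM, FADS2 at 323.2, ELOVL6 at 279.2 and ACLY at 249. HMGCS1, the cytosolic HMG-CoA synthase of the cholesterol route, stood at 1229 ± 592.2 TPM, and CYP27A1 and CYP7A1, of bile acid synthesis, at 252.1 and 60.2 TPM.

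Defence and detoxification genes were well represented. Beside AvBD9, AvBD10 stood at 659.9 ± 211.8 TPM, AvBD8 at 326 ± 106.9 and LEAP2, another antimicrobial peptide gene, at 148.6 ± 159.4. C3, the central complement component, stood at 2506 ± 853.3 TPM. CYP3A5 and CYP2C23a, cytochrome P450 enzymes, stood at 990.6 and 955.7 TPM, and GPX3 and SOD1, antioxidant enzymes, at 1781 and 1146 TPM. HPX, hemopexin, which clears haem, ran from 1642 through a median of 2935 to 11541 TPM, and TF, transferrin, stood at 4090 ± 1820 TPM.

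Markers of other liver cells were measured at lower levels. In bulk libraries fewer cells of a type and less RNA per cell cannot be told apart. CD74, of antigen presentation, stood at 472.6 ± 200.4 TPM and led the macrophage list, whose sum was 0.139 ± 0.0606% of TPM. The haemoglobin chains HBBA and HBA1 stood at 440.3 and 427.7 TPM, and erythrocyte markers summed to 0.0525% in replicate 3 and 0.227% in replicate 2. T and NK cell markers, led by GNLY at 152 TPM and CD3D at 42.4 TPM, summed to 0.0164 to 0.0308%. Stellate cell and fibroblast markers (RGS5 111 and DCN 109.2 TPM) summed to 0.0528 ± 0.018%, and endothelial markers (CDH5 22.4 and TEK 18.6 TPM) to 0.0153 ± 0.00558%. Of 10 matched B and plasma cell genes, 3 reached a mean of 1 TPM, and the same 3 reached 10 TPM. The list summed to 0.0414 ± 0.00926% of TPM.

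Variation between libraries was measured as the SD of log2(TPM + 1) over the 8 libraries, among the 4964 genes whose mean reached 10 TPM. Its median was 0.353, and 492 genes (9.91%) had an SD below 0.2. A gene was called variable when its SD was at least 1, and 271 genes were, or 5.46%. Among the 4645 protein-coding genes with a symbol, 197 (4.24%) were variable. The share was 4.32% among genes of 10 to 30 TPM, 8.6% at 100 to 300 TPM and 4.65% at 3000 TPM or more, so it did not fall steadily with abundance. Without replicate 7, 210 of 4972 genes (4.22%) were variable, and without replicate 3, 240 of 4872 (4.93%).

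The highest SDs belonged mostly to RNA genes. Among the 20 most variable rows, ribosomal RNA was the most frequent kind and PCK1 was the only protein-coding gene with a symbol. A row at 0 in most libraries that still reaches a mean of 10 TPM must have a high SD. The top of this ranking is therefore partly fixed by the filter. The variable rows among the nuclear ribosomal RNA rows were listed at 0 in 67.6% of their values. They summed to 0 TPM in replicates 3 and 6 and to 4765 TPM in replicate 7. Several of them reached a mean of 10 TPM through 1 library alone, so no count of them is given. LOC121106987, for example, was at 747.89 TPM in replicate 5 and at 0 in the other 7. The tested nuclear ribosomal RNA rows that were not variable summed to 3287 to 5452 TPM in the 8 libraries. Near-identical copies share reads, so the split between these rows is uncertain. The libraries were made from poly(A)-selected RNA. For this reason the most variable genes below are those that code for protein and carry a symbol, a ranking chosen after the data were seen.

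**Figure D3:**
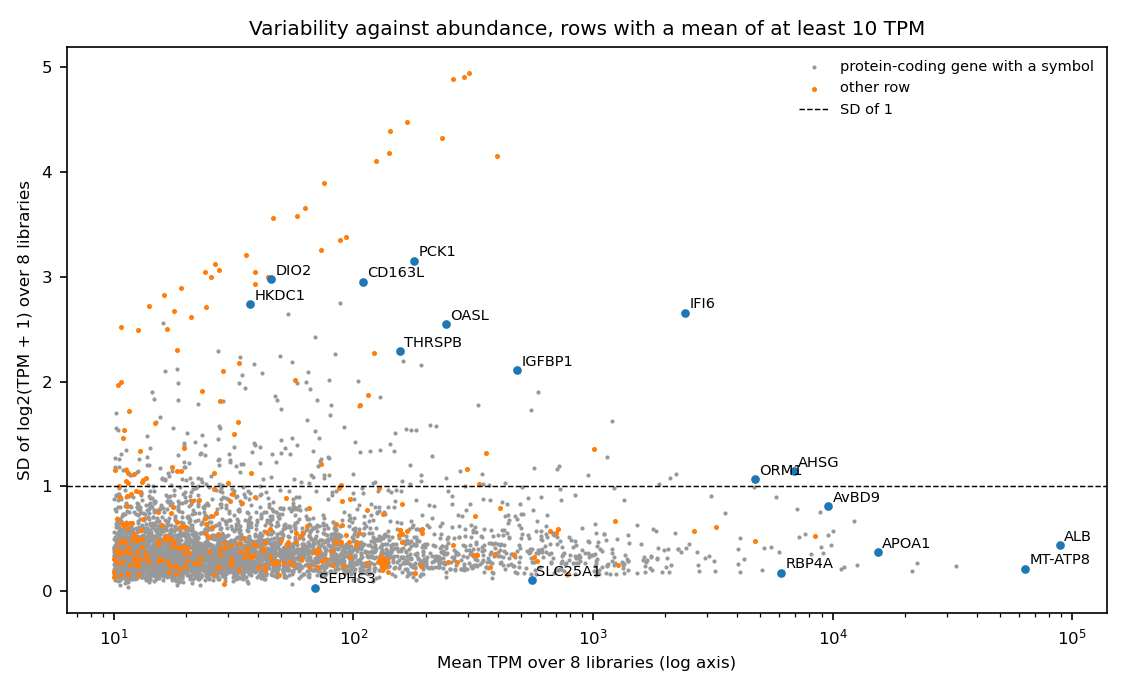
Each point is 1 of the 4964 genes whose mean reached 10 TPM, with the mean TPM on a logarithmic horizontal axis and the SD of log2(TPM + 1) over 8 libraries on the vertical axis. Most genes lie below an SD of 1 (dashed line), and the highest points belong to rows without a protein-coding symbol.

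PCK1, the cytosolic enzyme that commits carbon to gluconeogenesis, varied most. It was at 614.86, 7.59, 12.94, 626.78, 125.75, 43.11, 0.97 and 3.66 TPM in replicates 1 to 8 (SD of log2 3.15). Replicates 1 and 4 were high and replicate 7 near 0. IGFBP1, a secreted binding protein of insulin-like growth factors, was also highest in replicate 4, at 1903 TPM, and low in replicates 3 and 7, at 28.08 and 32.48 TPM. PDK4, which limits pyruvate oxidation, ran from 8.96 TPM in replicate 3 to 315.5 TPM in replicate 4.

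The thyroid hormone deiodinases varied in opposite libraries. DIO2, which activates the hormone, was at 173.12 TPM in replicate 3 and 165.31 TPM in replicate 7 and at 0.21 to 11.07 TPM in the other 6. DIO3, which inactivates it, was lowest in replicate 3 at 2.84 TPM, with 8.91 and 9.37 TPM in replicates 7 and 8, and at 36.78 to 126.56 TPM in the other 5. DIO1, the deiodinase typical of liver, had a much lower spread (98.4 ± 40.5 TPM). DIO2 reached a mean of 10 TPM only through replicates 3 and 7, so no count of variable growth hormone, insulin and thyroid genes is given.

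Several genes of sugar and fat metabolism were among the most variable. HKDC1, a hexokinase-like protein, was at 261.5 TPM in replicate 3, at 29.83 in replicate 2 and at most 2.15 TPM in the other 6. RBP7, a retinol-binding protein, was likewise at 96.32 TPM in replicate 3, at 29.72 in replicate 2 and at most 1.52 TPM in the others. Both HKDC1 and RBP7 reached a mean of 10 TPM only through replicate 3, so their place in this ranking follows from the filter. THRSPB, a gene of the lipogenic Spot 14 family, was at 728.17 TPM in replicate 3 and 3.48 TPM in replicate 7, with a median of 55.02. PPP1R3C, which targets a phosphatase to glycogen, was at 174.9 TPM in replicate 3 and 109.87 TPM in replicate 8, and at 3.71 to 63.23 in the others. G0S2, an inhibitor of fat breakdown, was at 130.55 TPM in replicate 7 and 80.65 TPM in replicate 3, with a median of 7. Of the fatty acid synthesis genes 5 of 19 were variable, of triglyceride synthesis genes 6 of 13, and of cholesterol genes 5 of 19, against 5.46% of all tested genes. Without replicate 3, 2 of 19 cholesterol genes were variable, against 4.93% of all tested genes. The summed share of TPM was highest in replicate 3 for fatty acid synthesis, in replicate 1 for triglyceride synthesis and in replicate 7 for cholesterol genes.

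**Figure D4:**
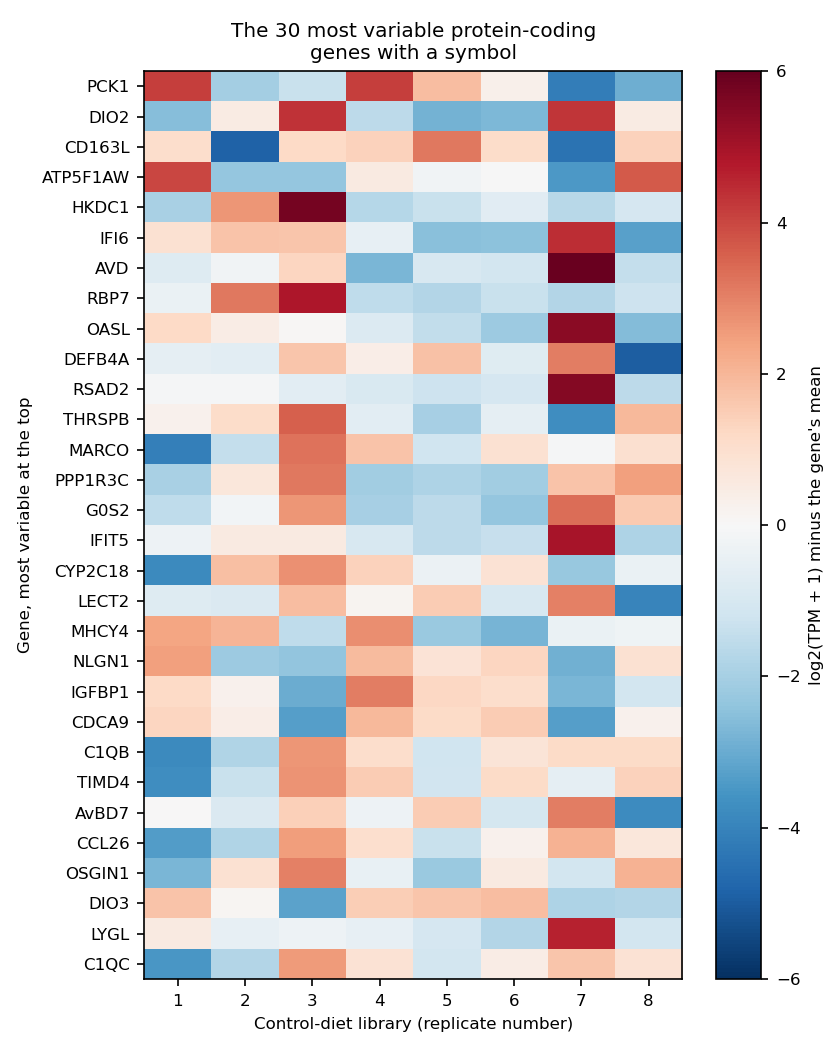
Rows are the 30 most variable protein-coding genes with a symbol and columns the 8 libraries; colour gives log2(TPM + 1) minus the gene's mean over the libraries. Replicates 3 and 7 show the strongest colours, and the interferon-responsive genes IFI6, OASL, RSAD2 and IFIT5 are highest in replicate 7.

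Replicate 7 had the highest level of every one of the interferon-responsive genes named here. IFI6 was at 13436 TPM in replicate 7 and at 64.37 to 2061 TPM in the other 7. OASL, an antiviral protein of the oligoadenylate synthetase family, was at 1710 TPM against 5.53 to 91.11, and IFIT5, which binds viral RNA, at 1106 TPM against 9.01 to 52.27. RSAD2, viperin, was at 204.58 TPM against 0.48 to 3.21 TPM, and reached a mean of 10 TPM only through replicate 7. The interferon list summed to 2.16% of TPM in replicate 7 and 0.117 to 0.412% in the other 7. Of 22 list genes that reached a mean of 10 TPM, 12 were variable, against 5.46% of all tested genes. Without replicate 7 only 16 reached that mean and 3 were variable, against 4.22% of all tested genes.

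Acute phase and stress genes were also high in replicate 7. The acute phase list summed to 7.35% of TPM there and 2.74 to 4.05% in the other libraries. ORM1, alpha-1-acid glycoprotein, was at 18763 TPM in replicate 7 and 1582 to 3878 TPM in the others. SAA, serum amyloid A, was at 503.6 TPM in replicate 7 and 425.7 TPM in replicate 1, with a median of 85.62. HSPA5, the main chaperone of the endoplasmic reticulum, was at 2293 TPM in replicate 7 and 1113 in replicate 3, and at 70.08 to 271 TPM in the other 6. AVD, avidin, a biotin-binding protein, was at 398.81 TPM in replicate 7 and at most 15 TPM elsewhere. AVD thus reached a mean of 10 TPM only through replicate 7.

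Genes of heterophils, the avian counterpart of neutrophils, were also highest in replicate 7. DEFB4A, a defensin of these cells, ran from 0 in replicate 8 through a median of 29.95 to 256.88 TPM in replicate 7. AvBD7 was at 139.6 TPM in replicate 7 and at 0.24 to 46.73 TPM in the others, LECT2, a leukocyte chemotaxin, at 145.85 TPM against 0.15 to 63.71, and S100A12, a calcium-binding protein of granulocytes, at 235.8 TPM against 5.47 to 95.69. The heterophil markers summed to 0.000912% of TPM in replicate 8 and 0.101% in replicate 7. CATH2, a cathelicidin, reached a mean of 10 TPM only through replicate 7, so no count of variable members is given. The part of these cells in the other results of replicate 7 was not tested.

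Macrophage genes varied with another library. MARCO, a scavenger receptor, was at 1.11 TPM in replicate 1 and 346.97 TPM in replicate 3, with a median of 50.94. TIMD4, a receptor for dying cells, and C1QB, a complement subunit, also had replicate 1 lowest (0.62 and 1.45 TPM) and replicate 3 highest (138.48 and 215.63 TPM). The summed share of the macrophage list was likewise highest in replicate 3 (0.276% of TPM). Its lowest value was in replicate 2 (0.0773%) and not in replicate 1 (0.1003%), so not all members followed these 3 genes. Of 14 macrophage and Kupffer cell markers that reached a mean of 10 TPM, 9 were variable, against 5.46% of all tested genes. Without replicate 3, 7 of 14 were, against 4.93%. CD163L, of the scavenger receptor family, did not follow them and was at 0.47 and 0.94 TPM in replicates 2 and 7 and 383.88 TPM in replicate 5. MHCY4, a gene of the chicken MHC-Y region, was at 341.09 to 568.63 TPM in replicates 1, 2 and 4 and at 11.07 to 69.07 TPM in the other 5.

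Chaperone and stress genes were abundant. CALR, P4HB and PDIA3, which fold proteins in the endoplasmic reticulum, stood at 1108 ± 464.7, 847.3 ± 181.3 and 596.8 ± 164.4 TPM, and 2 of 19 genes of the unfolded protein response were variable, against 5.46% of all tested genes, with a median SD of 0.542 against 0.353. HSPE1 and HSPD1, the mitochondrial chaperonins, stood at 793.6 and 424.3 TPM. HSP90AA1, a cytosolic chaperone, ran from 118.1 TPM in replicate 6 to 1545 TPM in replicate 7. Of 15 heat shock genes 2 were variable, against 5.46% of all tested genes, with a median SD of 0.72 against 0.353. ATF4, the transcription factor of the amino acid response, stood at 447.7 ± 247.4 TPM, and CHAC1, one of its targets, ran from 16 TPM in replicate 3 to 285.6 TPM in replicate 4.

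Regulators were measured at lower levels. CEBPB, NR1H3, HNF4beta and CEBPA, transcription factors of liver, stood at 59.0, 52.0, 51.1 and 49.1 TPM. HNF4A ran from 4.42 TPM in replicate 4 to 45.28 TPM in replicate 7, with 43.47 and 42.94 TPM in replicates 3 and 8. It was the 1 variable gene among 17 such factors that reached 10 TPM, near the 5.46% of all tested genes. Proliferation genes were low. PCNA stood at 57.2 ± 23.4 TPM, RRM2 at 10.1 ± 9.03 and MCM2 at 9.72 ± 6.71 TPM, and the 31 matched cell cycle genes summed to 0.00899 to 0.0353% of TPM, highest in replicate 3. Of the immediate early genes ZFP36L1 and BTG2 led at 143.5 and 84.0 TPM, and GADD45B ran from 9.87 TPM in replicate 3 to 147.1 TPM in replicate 4.

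Other lists had few variable genes or none. None of 66 ribosomal protein genes was variable (median SD 0.286), nor any of 19 coagulation genes (0.291), 27 amino acid catabolism genes (0.425), 13 mitochondrially encoded mRNAs (0.238) or 6 clock genes (0.456). The share over all tested genes was 5.46%, so a count of 0 in the shorter lists is near it. Against the median SD of 0.353 over all tested genes, the amino acid catabolism and clock lists lay above and the other 3 below. Of 71 nuclear respiratory chain genes 1, NDUFB7, was variable, at 7.3 TPM in replicate 4 and 58.6 to 115.9 TPM in the others. Among 22 cytochrome P450 genes 4 were variable, against 5.46% of all tested genes, led by CYP2C18, from 0.96 TPM in replicate 1 to 183.17 TPM in replicate 3, and CYP2C23b, from 46.84 TPM in replicate 7 to 1424 TPM in replicate 1.

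The first principal component of log2(TPM + 1) over protein-coding genes with a symbol held 33.8% of the variance and the second 27.4%, and over all tested rows 29.4% and 23.8%. Replicates 7 and 3 lay at one end of the first component and replicates 5, 6 and 4 at the other. On the second component replicate 3 lay opposite replicates 7 and 1. The largest loadings toward replicates 3 and 7 on the first were DIO2, AVD, IFI6, G0S2, OASL, IFIT5, PPP1R3C and RSAD2, and toward the other end PCK1, CDCA9, IGFBP1, NLGN1, CD163L, DIO3, CYP2C23b and ATP5F1AW. On the second they were HKDC1, CYP2C18, THRSPB, OSGIN1, RBP7, IL22RA2, MARCO and LEAP2 toward replicate 3, and OASL, RSAD2, LYGL, MX1, GADD45B, HSPA2, LPIN1 and USP41 toward replicates 7 and 1. Several of these genes, among them HKDC1, RBP7, AVD and RSAD2, entered the components only because a single library raised their mean to 10 TPM.

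SEPHS3 was the least variable gene. It was at 65.74 to 71.26 TPM in all 8 libraries (SD of log2 0.036). The 20 with the lowest SD included the histone-modifying subunits ASH2L, HDAC1 and MEAF6, the RNA polymerase II subunit POLR2B and the negative elongation factor subunit NELFE. They also included the mitochondrial deacetylase SIRT3, the secretory cargo receptor LMAN2, the autophagy protein GABARAPL2 and the gamma-secretase subunit NCSTN. The others were ST7L, GLG1, AES, LOC420374, ENSA, FAM134C, ASNSD1, EXTL3, SPEN and FZR1. This ranking depends on the scale. After rescaling by the median ratio of genes (size factors 0.886 in replicate 7 to 1.2 in replicate 3), 0 of these 20 remained among the 20 lowest, though their SDs stayed at 0.0845 to 0.19, below the rescaled median of 0.327. GAPDH, at 3235 TPM, had an SD of 0.0808 after rescaling and 0.198 before.

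Urea cycle genes were low. CPS1, which makes carbamoyl phosphate in mitochondria, stood at 0.68 ± 0.316 TPM (n = 8), from 0.28 to 1.2. OTC, which joins it to ornithine, was listed at 0 in 7 libraries and at 0.06 TPM in replicate 3. ARG2, the mitochondrial arginase, stood at 0.613 ± 0.345 TPM. The ornithine carrier SLC25A15 stood at 1.04 ± 0.75 TPM and ASL, which splits argininosuccinate, at 1.7 ± 1.2 TPM. ASS1, argininosuccinate synthase, was the exception, at 8.19 TPM in replicate 5 through a median of 14.22 to 43.58 TPM in replicate 3. ARG1, NAGS and SLC25A2 were not analysed here.

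**Figure D5:**
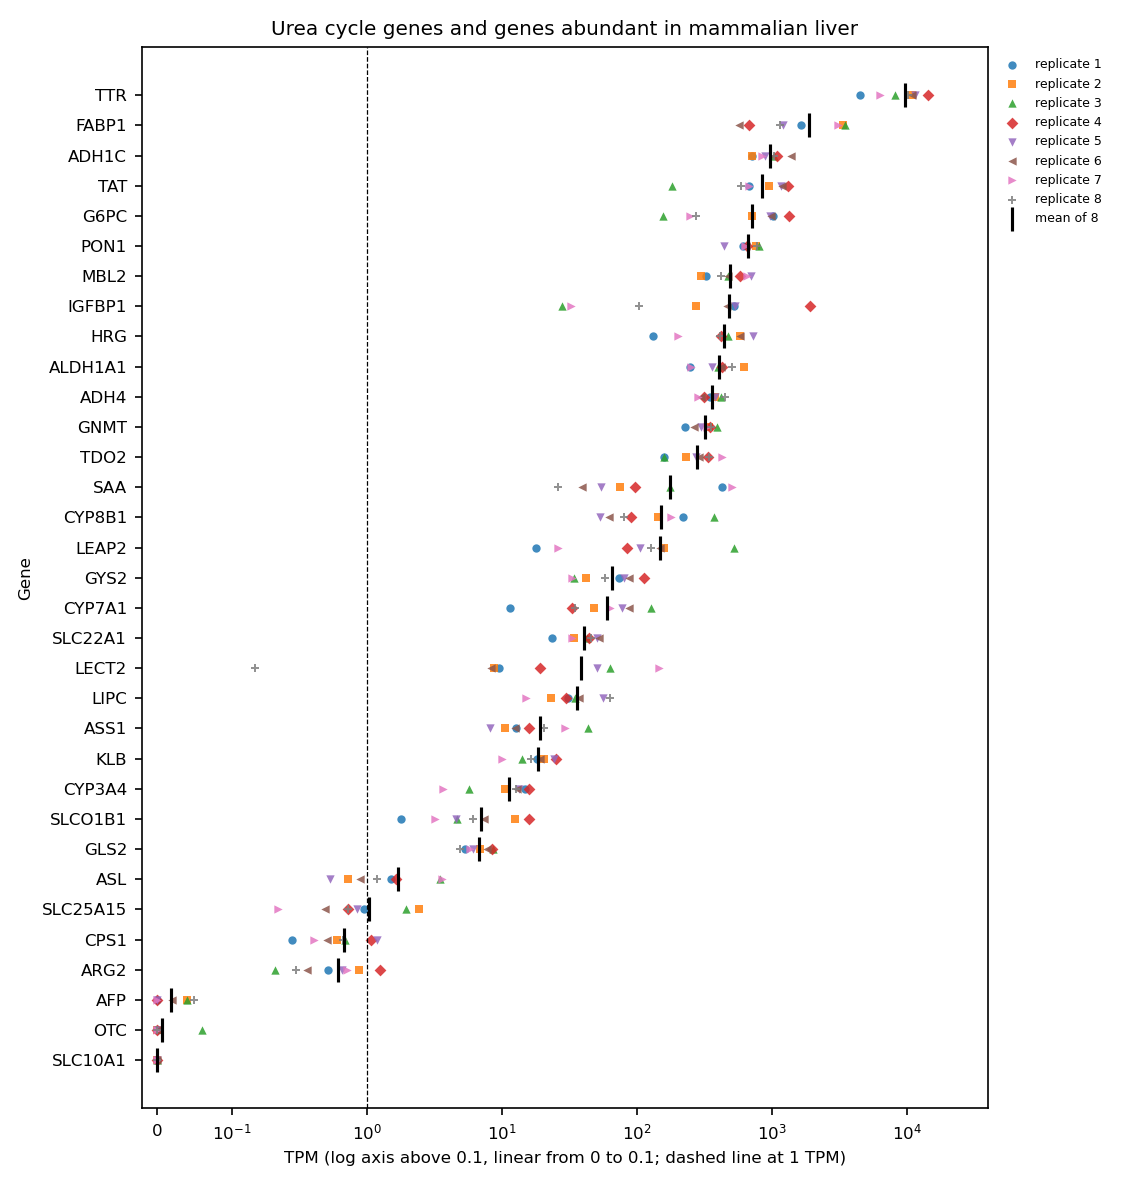
TPM of 33 measured genes of the urea cycle and mammalian liver lists (rows) in the 8 libraries (symbols), with the mean as a black bar; the axis is logarithmic above 0.1 TPM and linear below. Most genes lie above 10 TPM, and SLC10A1, OTC and AFP lie at or near 0.

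Beside the urea cycle, genes that are abundant in mammalian liver spanned a wide range. Of the 52 symbols in that list 21 were not analysed here. Of 35 distinct genes measured from both lists, 17 had a mean of at least 100 TPM, 10 were below 10 and 6 below 1 TPM. CPS1, OTC, ARG2, AFP and SLC10A1 were among these 6. AFP, the fetal protein alpha-fetoprotein, had a mean of 0.0187 TPM, and SLC10A1, which takes up bile salts in mammals, was listed at 0 in all 8. As for PNP, that exact 0 can be a failed estimate. SLCO1B1, an organic anion carrier, and GLS2, liver glutaminase, were low at 6.99 ± 4.8 and 6.74 ± 1.4 TPM. At the upper end stood FABP1 (1889 TPM), ADH1C and ADH4, alcohol dehydrogenases (961.1 and 358.8 TPM), PON1 (665 TPM), MBL2 (489.8 TPM), HRG (438.3 TPM), ALDH1A1 (402.5 TPM), GNMT (318.2 TPM) and TDO2 (276.6 TPM).

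Relations between genes of one pathway were computed over the 8 libraries for 26 gene pairs chosen with earlier results of these data known. Pearson correlations on log2(TPM + 1) were tested by exact permutation of the pairings, two-sided, with Benjamini-Hochberg adjustment over the 26, and 8 were called at 0.05, of which 6 are described. With Spearman's rho 9 were called, and 14 had an unadjusted p below 0.05 by Pearson.

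For the interferon genes IFIT5 and MX1 r was 0.96 and rho 0.93 (exact permutation p = 0.00131, adjusted p = 0.00914). Without replicates 7 and 8, the 2 libraries farthest from the median of IFIT5, r was 0.75 (exact p = 0.0972). Without replicate 7 alone r was 0.81 and no longer called, and without replicate 8 alone it was 0.96 and still called. The call thus depended on replicate 7.

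GHR, the growth hormone receptor, and IGF1, its target, had r = 0.82 and rho = 0.9 (exact permutation p = 0.00136, adjusted p = 0.00914), and r was 0.8 without replicates 1 and 3. The lipogenic enzymes FASN and ACACA had r = 0.87 and rho = 0.86 (exact permutation p = 0.00258, adjusted p = 0.00958), and r was 0.88 without replicates 1 and 4. The chaperones HSPH1 and HSPA8 had r = 0.91 and rho = 0.93 (exact permutation p = 0.00176, adjusted p = 0.00914), and r was 0.88 without replicates 6 and 7. The 2 libraries left out were those farthest from the median of the gene named first, and the second gene was not considered. Without them the unadjusted p of these 3 stayed below 0.05 (exact p = 0.0389, 0.0264 and 0.0181). With a single library left out, the adjusted call was lost for GHR and IGF1 without replicate 1 (r = 0.87) or 2 (r = 0.79), and for FASN and ACACA without replicate 1 (r = 0.79). For FASN and ACACA it was also lost with TPM in place of log2 (r = 0.76).

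ASS1 and ASL, neighbours in arginine synthesis, had r = 0.92 and rho = 0.9 (exact permutation p = 0.00176, adjusted p = 0.00914). Without replicates 3 and 7 r was 0.72 (exact p = 0.0972), and the adjusted call was kept in all 11 alternatives, with r from 0.89 to 0.96. HSPH1 and HSPA5 had r = 0.88 and rho = 0.83 (exact permutation p = 0.00332, adjusted p = 0.0108), and 0.66 without replicates 6 and 7 (exact p = 0.149). Over the 6 libraries left neither relation passed. The adjusted call was also lost for HSPH1 and HSPA5 without replicate 3 (r = 0.87) or 7 (r = 0.75). PCK1 and FASN, of opposed pathways, had r = -0.13 and rho = 0.05 (exact permutation p = 0.749), and ALB and FGB r = -0.01 (exact permutation p = 0.989), and neither was called.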

How the data were processed

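Liver RNA was extracted with TRIzol, poly(A)-selected, made into stranded Illumina libraries and sequenced as paired reads on a NovaSeq X Plus, per the labels' protocols. The authors deposited 1 table of TPM (sums per library of 998871 to 999089). The tools were RSEM, StringTie, HISAT2 and fastp, per the submitters' processing notes, which give no versions or roles, and the genome build is not given in the sources used here. Sequencing depth is unknown, so no counting interval is given.

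The 8 control libraries were taken by label. Of 25619 IDs, 25368 matched a symbol of the RefSeq table (GRCg7b, used for names, biotype and chromosome), 13 were named by locus tag and 238 had no match. A set of 19 older symbols was matched by hand. Lists and shares used TPM, and variability used the SD of log2(TPM + 1) among rows with a mean of at least 10 TPM. The members, lists, gene pairs and rules were chosen with earlier results of these data known. Genes were named by rule: the 25 highest means, the 20 highest and lowest SDs, all urea cycle and mammalian liver members, the leading members of each other list, the largest component loadings and the gene pairs, not all of which are printed. Some genes are not reported here. The ranking of protein-coding genes with a symbol was added after seeing the data. The SD rule and permutation test were tested on simulated data. Python 3.11.15, pandas 2.3.3, numpy 2.4.6 and scipy 1.17.1 were used.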

Additional observations from a re-analysis of the deposited data

Results flagged for a closer look

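Of 130 sets of 8 library values examined, 36 had a highest or lowest library far from the rest by Dixon's criterion. Chance flags about 1 in 20 groups when values are normally distributed. TPM and shares were used without a log scale and can be skewed, so the 36 cannot be set against that rate. Replicate 7 was that library in 18, replicate 3 in 9 and replicate 1 in 4. The genes examined include the most variable ones, which were picked for their spread.

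Replicate 7 was far above the others for the summed share of interferon response (2.16%), acute phase (7.35%) and heterophil genes (0.101%). Among single genes it stood far above for IFI6 (13440 TPM), OASL (1710 TPM), IFIT5 (1106 TPM), RSAD2 (204.6 TPM), MX1 (133 TPM), AVD (398.8 TPM) and ORM1 (18760 TPM). The same holds for DEFB4A (256.9 TPM), AvBD1 (122.9 TPM), AvBD7 (139.6 TPM), S100A12 (235.8 TPM), LECT2 (145.8 TPM), HSPA5 (2293 TPM), HSPH1 (29.17 TPM) and MT-COX1 (33250 TPM).

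Replicate 3 stood far above for macrophage markers (0.276% of TPM) and for MARCO (347 TPM), C1QA (154.2 TPM), C1QB (215.6 TPM), TIMD4 (138.5 TPM), HKDC1 (261.5 TPM), THRSPB (728.2 TPM) and RBP7 (96.32 TPM), and was the only library with OTC above 0 (0.06 TPM). Replicate 1 stood far above for fatty acid oxidation and ketogenesis (1.61%), antioxidant and conjugation genes (3.3%) and adipocyte markers (0.0505%), and far below for arginine, creatine and polyamine metabolism (0.163%). Replicate 2 was highest for erythrocyte (0.227%) and skeletal muscle markers (0.000566%), replicate 4 for the growth hormone, insulin and thyroid axis (0.274%) and IGFBP1 (1903 TPM), and replicate 5 for CD163L (383.9 TPM).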

How the results depend on the processing

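No paired analysis was possible because only the control group is described. Of 225 alternative values, 200 were labelled as kept, under rules loose enough that this count does not measure how firm the results are. A count could move and still be labelled as kept, as with 196 variable genes by the median absolute deviation against 271. A share of TPM was counted as kept when it lay within 1 SD of the mean. Its median and its mean without 1 library always lie there, so those values are no test of the shares, though the 200 includes them. With mitochondrially encoded transcripts left out, the share in the top 10 genes fell from 30.1 to 24.7%, the number of genes holding 0.5 of the TPM rose from 45.8 to 86.2, plasma proteins went from 18.2 to 22.9% and ribosomal proteins from 8.44 to 10.6%. The number of variable genes was 498 with a mean of at least 1 TPM and 501 with no filter, against 271. Of the 20 most variable rows 4 remained with the median absolute deviation and 1 with protein-coding symbols only (chosen after seeing the data). Of the 20 most variable protein-coding symbols 10 remained with the median absolute deviation, 14 with a pseudocount of 0.1 and 12 without replicate 7. Of the 20 least variable, 9 remained with a mean of at least 1 TPM, 0 with median-ratio rescaling, 8 without mitochondrial transcripts, 0 with the median absolute deviation, and 7 to 17 when a library was left out. Liver genes below 0.5 TPM numbered 3 against 6 below 1 TPM. Called gene pairs numbered 5 to 9 when a library was left out, against 8, with 5 without replicate 1.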
